A study of Homo sapiens with 12 samples.

Results

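*BDH1*, *BDH2*, *OXCT1* and *ACAT1* encode enzymes that make and use ketone bodies, and their mRNA was followed in a human melanoma cell line treated with an agonist and an antagonist of the nuclear receptor PPARγ. The 4 genes were taken for their place in this pathway. They are 4 of the 23705 genes in the deposited count table, and all 4 were among the 13522 genes with enough counts to be tested. The cells were A375, a line derived from a metastatic melanoma of the skin, and no other line was measured, so the results describe A375 in culture medium with serum. All cells received the vehicle DMSO. In the 4 conditions they received vehicle alone, 5 μM of rosiglitazone (RGZ, the PPARγ agonist), 2 μM of T0070907 (a PPARγ antagonist), or 5 μM of RGZ with 2 μM of T0070907 (the combination), each for 24 h. Each condition was sequenced once in each of 3 independent experiments, in which the RNA of technical replicates had been pooled, which gave 12 libraries.

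Ketone bodies are small, water-soluble fuels that the liver makes from fatty acids during fasting and that other tissues oxidize. *BDH1* encodes the mitochondrial dehydrogenase that interconverts acetoacetate and beta-hydroxybutyrate, and it runs toward acetoacetate in tissues that burn ketone bodies. There *OXCT1* encodes the transferase that activates acetoacetate with succinyl-CoA, and *ACAT1* encodes the mitochondrial thiolase that splits the product into acetyl-CoA. *ACAT1* also serves in isoleucine breakdown, and *BDH2* encodes a cytosolic dehydrogenase described to act on beta-hydroxybutyrate and in iron handling.

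Libraries held between 8319455 and 11375227 counts, and the detection floor of 3 counts lay between 0.258 and 0.371 CPM. CPM is the count of a gene scaled to a common library size, here with edgeR's TMM factors. Of the 8 melanocyte lineage markers looked at, *SOX10* and *MITF* were expressed in every library, with 178 to 429 CPM for *SOX10*. The pigment gene *TYR* had 0 counts in all 12 libraries and *DCT*, *MLANA*, *PMEL* and *TYRP1* had at most 13 counts in any of them, so the pigment cell program was present only in part. Libraries of 1 experiment resembled each other beyond their treatment, and each comparison was therefore fitted without and with the experiment as a term of the model, which is called the replicate block below.

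*ACAT1* had the highest level of the 4 genes, followed by *OXCT1*, *BDH1* and *BDH2*. Per kilobase of the longest annotated transcript, vehicle-treated cells held 43.6 ± 2.66 CPM of *ACAT1*, 21.8 ± 0.686 of *OXCT1*, 6.73 ± 0.381 of *BDH1* and 2.38 ± 0.398 of *BDH2* (SD, n = 3). On this scale 87.0% of the tested genes were as low as *ACAT1* or lower, and the share was 74.7% for *OXCT1*, 46.4% for *BDH1* and 25.5% for *BDH2*. The neighbours in this order lay apart by more than their SD in each of the 4 conditions. Under RGZ, *BDH1* and *BDH2* were at 4.76 ± 0.426 and 2.08 ± 0.116 CPM per kilobase (SD, n = 3). The order of the 4 genes was thus the same with and without either compound.

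**Figure D1:**
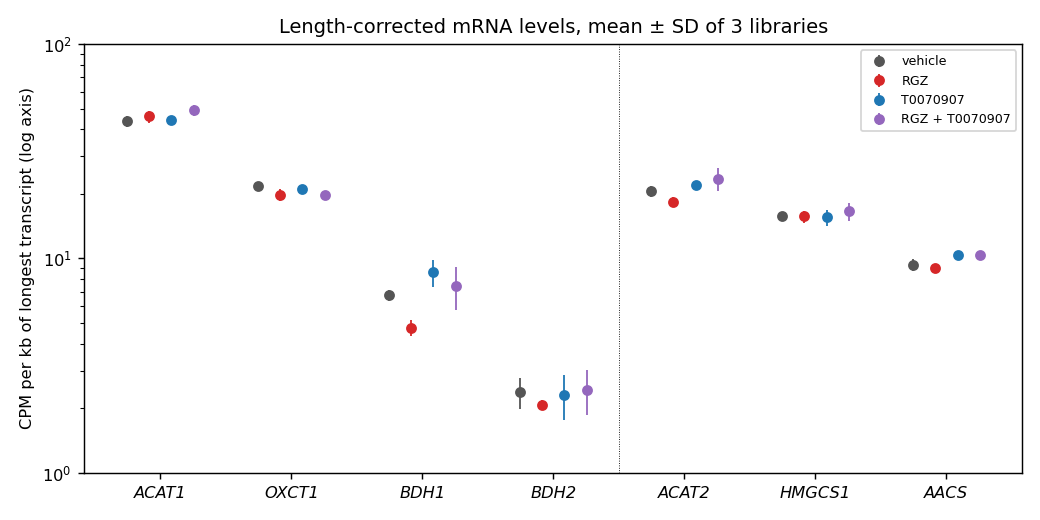
Length-corrected mRNA level (CPM per kilobase of the longest transcript, log axis) of the 4 genes, left of the dotted line, and of 3 other enzymes, right of it, in each condition. Points are means and bars SD of 3 libraries, and *BDH1* runs from 4.76 under RGZ to 8.61 under T0070907.

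*BDH1* was lowest under RGZ, and its fall passed the test when the experiment was taken into account. In vehicle-treated cells, the *BDH1* level was 23.5, 25.3 and 22.7 CPM in experiments 1, 2 and 3, from 207, 213 and 193 counts. Under RGZ it was 15.8, 18.6 and 16.2 CPM, from 152, 163 and 160 counts. All 3 RGZ libraries lay below all 3 vehicle libraries. Under T0070907 it was 30.5, 35.0 and 26.1 CPM in experiments 1 to 3, and all of these lay above the vehicle libraries. With both compounds it was 32.5, 26.1 and 20.6 CPM, a range that covered the vehicle libraries and stood above those of RGZ. The means were 23.9 ± 1.35 CPM for vehicle, 16.9 ± 1.51 for RGZ, 30.5 ± 4.45 for T0070907 and 26.4 ± 5.96 for the combination (SD, n = 3).

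**Figure D2:**
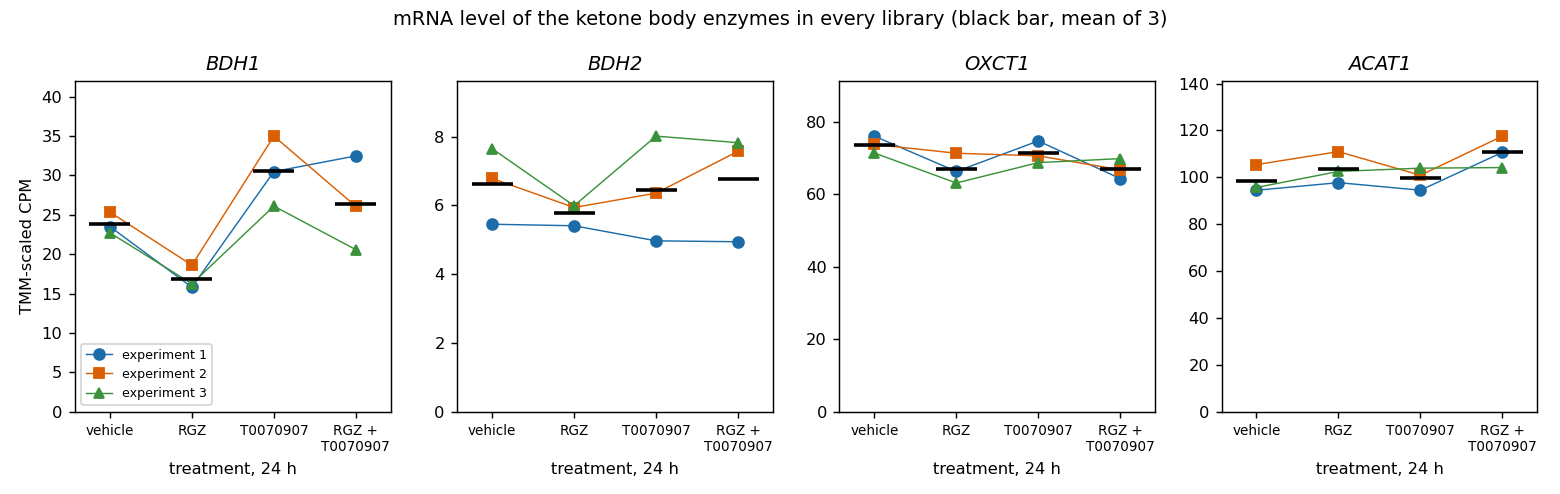
TMM-scaled CPM of the 4 genes in all 12 libraries by treatment, each axis starting at 0. Lines join the libraries of 1 experiment and black bars are means of 3 libraries; for *BDH1* the RGZ libraries (15.8 to 18.6 CPM) lie below every other library of that gene, and combination 1 (32.5 CPM) lies above the other 2 of its condition.

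RGZ against vehicle shows what the agonist did to the mRNA of the dehydrogenase. *BDH1* under RGZ was 0.672, 0.734 and 0.715 times the vehicle level of experiments 1, 2 and 3. Without the replicate block the log2 fold change, -0.50 ± 0.16 (SE), did not pass edgeR's quasi-likelihood test (adjusted p = 0.232). Taking out the experiment narrowed the error to -0.50 ± 0.12 (SE, adjusted p = 0.0126 in edgeR), a level 0.708 times that of vehicle, with a 95% interval from -0.75 to -0.24. With the block, 9.3% of all tested genes were called for RGZ, 4.35% being lower, against 1.24% and 0.288% without it. Groups of libraries that did not overlap, as for *BDH1*, were also seen in 16.8% of all tested genes, and in 7.57% with RGZ lower. In the exact permutation test of 3 against 3 libraries, *BDH1* gave p = 0.1, which is the smallest p this design allows. The call with the block was lost without vehicle 3 (log2 fold change -0.43, adjusted p = 0.106 in edgeR) and without RGZ 1 (-0.40, adjusted p = 0.105), and it was kept in the other 10 of 12 fits that left out a library.

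Adding T0070907 to RGZ asks whether the antagonist turned this fall around. The combination stood 2.06, 1.40 and 1.27 times above RGZ alone in experiments 1, 2 and 3. The log2 fold change of *BDH1* for the combination against RGZ was 0.64 ± 0.16 (SE) (adjusted p = 0.0903 in edgeR, no block). The blocked fit gave 0.63 ± 0.12 (SE, adjusted p = 0.00163 in edgeR), a level 1.55 times that of RGZ alone, with a 95% interval from 0.38 to 0.88. The share of tested genes called in this comparison was 11.4% with the block, 5.55% being higher, and 1.24% without it, 0.311% being higher. Combination libraries that all stood above those of RGZ were seen in 8.62% of tested genes. Leaving out each library in turn kept the call with the block in 12 of 12 fits, with adjusted p-values from 5.6e-04 to 0.0251 in edgeR. Lower under RGZ and higher again in the combination, both with the block, were 360 of the tested genes, or 2.66%. Both comparisons use the RGZ libraries, so low values there move them together.

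Against vehicle, the combination left *BDH1* at a log2 fold change of 0.14 ± 0.16 (SE) with an adjusted p of 0.782 in edgeR, and 0.13 ± 0.11 (SE) with the block. The 95% interval with the block ran from -0.11 to 0.37, so the level was between 0.928 and 1.30 times that of vehicle. No gene of the 13522 was called in this comparison by edgeR in either fit, a share of 0%, while 1438 genes had an unadjusted p under 0.05 without the block and 2868 with it, and DESeq2 with the block called 227 genes.

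T0070907 alone gave *BDH1* ratios to vehicle of 1.30, 1.38 and 1.15 in experiments 1, 2 and 3. In log2 units this was 0.36 ± 0.16 (SE, adjusted p = 1.00 in edgeR), and 0.35 ± 0.11 in the blocked fit (adjusted p = 0.198). The 95% interval with the block ran from 0.12 to 0.59. Of all tested genes, 0.0074% were called here without the block and 0.91% with it, and libraries of T0070907 lay wholly above those of vehicle in 3.6%. Against T0070907 alone, the combination gave -0.21 ± 0.15 (SE, adjusted p = 0.554 in edgeR), and -0.22 ± 0.11 in the blocked fit (adjusted p = 0.190), with an interval from -0.45 to 0.00. Called here were 0.037% of tested genes without the block and 8.76% with it. Experiment 1 went the other way from experiments 2 and 3 here, with ratios of 1.07, 0.745 and 0.788. When combination 1 was left out of the blocked fit, T0070907 against vehicle (log2 fold change 0.35, adjusted p = 0.0147 in edgeR) and the combination against T0070907 (-0.40, adjusted p = 0.0111) passed the test. T0070907 against vehicle holds no combination library. Its log2 fold change stayed at 0.35 and only the error and the adjusted p moved. The share of all tested genes called in that fit is not given here. The effect of RGZ on *BDH1* with and without T0070907 differed by 0.29 ± 0.22 (SE) on the log2 scale, (interaction, adjusted p = 1.00 in edgeR), and by 0.28 ± 0.16 in the blocked fit (adjusted p = 0.612), so a difference between the effects was not shown. The interaction was called for 0% of tested genes without the block, with 406 genes at an unadjusted p under 0.05, and for 0.281% with it.

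**Figure D3:**
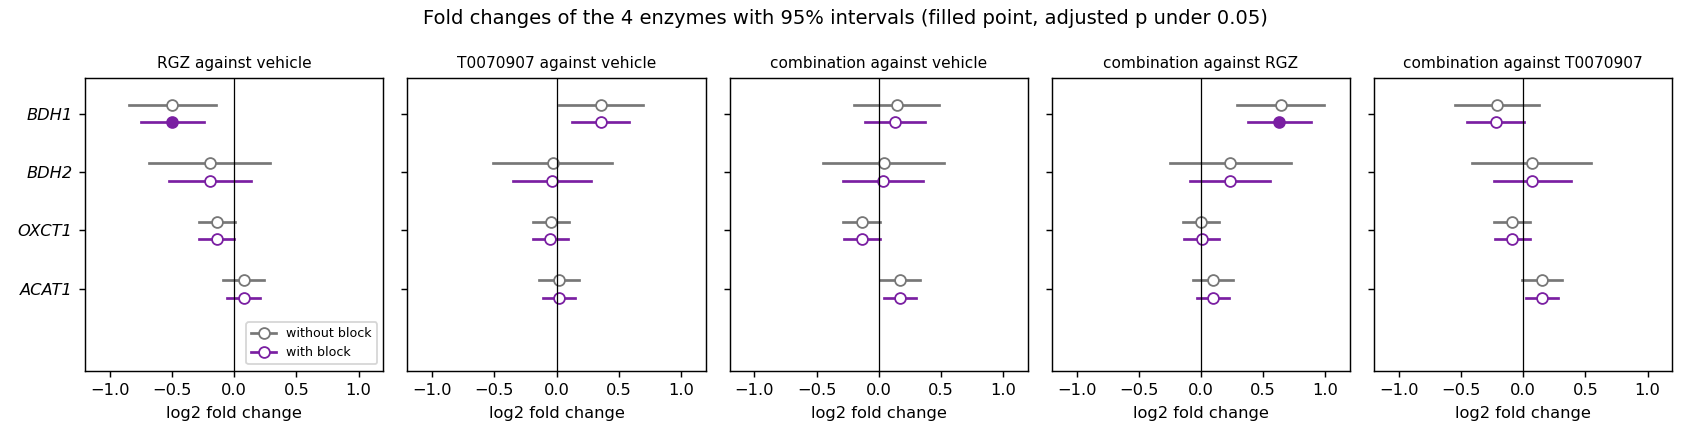
Log2 fold changes of the 4 genes in the 5 comparisons, without (grey) and with (purple) the replicate block. Bars are 95% intervals and filled points mark an adjusted p under 0.05 in edgeR; the only filled points are *BDH1* for RGZ against vehicle (-0.50) and for the combination against RGZ (0.63), both with the block.

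Some markers of cell identity went the same way as *BDH1*. Of the 8 melanocyte lineage markers 4 were tested, and none was called without the block, where 1.24% of all tested genes were called for RGZ. For RGZ 2 of the 4 were lower with the block, against 4.35% of all tested genes. In the combination against RGZ 2 were higher with the block, against 5.55%, and for T0070907 1 was called, against 0.91%. With the block, *S100B*, a calcium-binding protein of melanocytic cells, was 0.436, 0.438 and 0.567 times its vehicle level under RGZ in experiments 1, 2 and 3 (log2 fold change -1.02, adjusted p = 3.73e-05 in edgeR). It was higher with T0070907 (0.59, adjusted p = 0.0119 in edgeR) and in the combination against RGZ (1.34, adjusted p = 1.61e-06). *MITF*, the melanocyte master regulator, fell with RGZ in the same fit (-0.34, adjusted p = 0.00997 in edgeR) and was higher in the combination against RGZ (0.27, adjusted p = 0.0377), while *SOX10* was not called. The summed level of the 8 markers, most of it *SOX10*, was 281 to 498 CPM in vehicle, 229 to 422 in RGZ, 327 to 531 in T0070907 and 289 to 478 in the combination.

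Of 8 markers of other cell types 4 were tested, and none was called without the block or for T0070907 against vehicle in either fit. For RGZ 2 of the 4 were lower with the block, against 4.35% of all tested genes. In the combination against RGZ 1 was higher with the block, against 5.55%. In the combination against T0070907 1 was called with it, against 8.76%. With the block *KRT14*, a keratin of basal keratinocytes, and *COL1A1*, a collagen chain of fibroblasts, fell with RGZ (-0.94 and -0.76, adjusted p = 1.82e-04 and 6.72e-04 in edgeR), and *KRT14* was higher in the combination against RGZ (1.10, adjusted p = 3.20e-05 in edgeR). *COL1A1* was lower in the combination against T0070907 (-0.55, adjusted p = 0.0125 in edgeR). The endothelial marker *PECAM1* went the other way, with 0, 2 and 2 counts in vehicle and 3, 12 and 4 under RGZ. The summed level of the 8 markers, most of it *KRT14* and *COL1A1*, was 29.6 to 43.8 CPM in vehicle, 19.1 to 24.5 in RGZ, 42.4 to 53.0 in T0070907 and 35.1 to 38.3 in the combination. *ALB*, the defining gene of hepatocytes, had 0 counts in all libraries, and *APOA1* and *PTPRC* had at most 2. The part of these markers in the *BDH1* result was not tested, and in bulk RNA fewer cells with a transcript and less of it per cell cannot be told apart.

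The promoter windows of *BDH1* are shown because PPARγ binds DNA with its partner RXR at direct repeats of AGGTCA spaced by a single base, written AGGTCANAGGTCA. RefSeq lists 2 starts of *BDH1*, and the windows below hold the 250 bases before each of them on the strand of the gene, in the build GRCh38.p14, with the letters closest to this repeat on either strand in capitals. The counts do not tell which start was used.
*BDH1*, chr3:197573344-197573593, minus strand: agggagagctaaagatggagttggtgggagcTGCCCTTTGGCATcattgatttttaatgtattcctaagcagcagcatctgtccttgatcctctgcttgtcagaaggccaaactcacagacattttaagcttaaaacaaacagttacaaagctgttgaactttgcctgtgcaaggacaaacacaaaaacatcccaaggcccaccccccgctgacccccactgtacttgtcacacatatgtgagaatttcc
*BDH1*, chr3:197555969-197556218, minus strand: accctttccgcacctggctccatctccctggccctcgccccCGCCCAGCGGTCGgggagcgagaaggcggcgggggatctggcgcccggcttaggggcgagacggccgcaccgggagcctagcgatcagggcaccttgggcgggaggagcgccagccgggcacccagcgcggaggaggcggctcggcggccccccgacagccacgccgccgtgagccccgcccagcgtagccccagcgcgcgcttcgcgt
In the first window the closest stretch, TGCCCTTTGGCAT, lies 219 bases before the start, reads on the opposite strand and has 3 mismatches in the 12 fixed letters. A match with at most 3 mismatches was found in 18% of 35116 such windows of 27305 genes. In the second window the closest stretch has 5 mismatches, as 99.4% of windows do or better. The windows of *BDH2*, *OXCT1* and *ACAT1* had 4 or 5 mismatches at best, and 68.7% of all windows have 4 or fewer. AGGTCA itself was in none of the windows of the 4 genes on either strand, and in 12.1% of all windows. These are matches of letters in short windows and say nothing of binding.

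*OXCT1*, the transferase of ketone body use, was nearly level. It was at 76.1, 73.8 and 71.4 CPM in the vehicle libraries of experiments 1, 2 and 3, and at 66.3, 71.4 and 63.1 CPM under RGZ. T0070907 gave 74.7, 70.6 and 68.8 CPM, and the combination gave 64.4, 66.8 and 69.9 CPM. The RGZ libraries and the combination libraries did not overlap with those of vehicle, although the highest RGZ library and the lowest vehicle library were both at 71.4 CPM. Such lower groups were seen in 7.57% of tested genes for RGZ and in 6.57% for the combination. The log2 fold change of *OXCT1* for RGZ was -0.14 ± 0.07 (SE, adjusted p = 0.493 in edgeR), and 0.230 was the adjusted p with the block. For the combination against vehicle it was also -0.14 ± 0.07 (SE, adjusted p = 0.485 in edgeR). With the block the 95% intervals ran from -0.28 to 0.00 for RGZ and from -0.28 to 0.01 for the combination, so that a level below 0.822 times that of vehicle lay outside both. Between the combination and RGZ the difference was 0.00 ± 0.07 (SE), with a 95% interval from -0.14 to 0.15 with the block.

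*ACAT1*, the thiolase at the last step, had 94.5, 105 and 95.7 CPM in the vehicle libraries of experiments 1 to 3 and 97.7, 111 and 103 CPM under RGZ. Each RGZ library was above the vehicle library of its own experiment, by ratios of 1.03, 1.05 and 1.07, and the groups overlapped. T0070907 gave 94.5, 101 and 104 CPM. The combination gave 111, 118 and 104 CPM, which lay above vehicle within each experiment and above every T0070907 library. Such higher groups against T0070907 were seen in 8.96% of tested genes. The log2 fold change of *ACAT1* for RGZ was 0.07 ± 0.07 (SE, adjusted p = 0.781 in edgeR), with a 95% interval from -0.06 to 0.20 with the block. For the combination against vehicle it was 0.17 ± 0.07 (SE, adjusted p = 0.455 in edgeR), and with the block 0.17 ± 0.06 (SE, adjusted p = 0.138). The interval with the block, from 0.04 to 0.30, is not adjusted for the number of genes. Against T0070907 the combination gave 0.15 ± 0.07 (SE, adjusted p = 0.361 in edgeR).

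*BDH2*, the cytosolic dehydrogenase, was the least expressed of the 4 genes, with 40 to 93 counts per library, and its values followed the experiment more than the treatment. Vehicle libraries held 5.45, 6.78 and 7.65 CPM in experiments 1, 2 and 3, and RGZ libraries held 5.41, 5.94 and 5.99. With T0070907 the values were 4.97, 6.36 and 8.01 CPM and with both compounds 4.94, 7.57 and 7.82. Experiment 1 was the lowest of its condition in all 4 conditions, and the groups overlapped in every comparison. The log2 fold change of *BDH2* for RGZ was -0.20 ± 0.22 (SE, adjusted p = 0.811 in edgeR), and with the block the 95% interval ran from -0.52 to 0.13. Without the block it was -0.32 when vehicle 1 was left out and -0.081 when vehicle 3 was. At these counts, levels between 0.696 and 1.10 times that of vehicle were within the interval, so a fall of the size seen for *BDH1* could not be told from none. For T0070907 and for the combination against vehicle the changes were -0.03 ± 0.22 and 0.04 ± 0.22 (SE), with intervals with the block from -0.35 to 0.28 and from -0.28 to 0.36.

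Of the spread of log2 CPM over the 12 libraries, the condition took 76.7% for *BDH1*, 56.0% for *OXCT1*, 47.6% for *ACAT1* and 10.5% for *BDH2*. The experiment took 11.6%, 7.09%, 33.7% and 72.5% in the same order. These shares describe the libraries and carry no test.

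Reads may be shared with overlapping genes for 3 of the 4. *BDH2* overlaps *SLC9B2* on the same strand, which had 110 to 169 counts per library, and it has an annotated pseudogene, *BDH2P1*. *OXCT1* and *ACAT1* have antisense genes, and whether reads were counted by strand is not given in the sources used here, so that a gene and its antisense partner cannot be told apart. No annotated gene overlaps *BDH1*.

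Other thiolases and enzymes that handle acetoacetyl units were looked at in the same fits. *ACAT2*, the cytosolic thiolase of sterol synthesis, had 64.8, 69.8 and 61.5 CPM in vehicle, 55.7, 61.8 and 57.2 under RGZ, 73.2, 69.8 and 66.5 with T0070907 and 83.4, 75.3 and 65.6 with both. All combination libraries of *ACAT2* lay above those of RGZ. Its log2 fold change for the combination against RGZ was 0.36 ± 0.07 (SE) with the block (adjusted p = 0.00370 in edgeR), and 0.36 ± 0.09 without it (adjusted p = 0.0917). With the block, this call was lost without RGZ 1 (adjusted p = 0.0525 in edgeR). For RGZ against vehicle *ACAT2* was at -0.17 ± 0.09 (SE, adjusted p = 0.566 in edgeR). *AACS*, which activates acetoacetate in the cytosol for lipid synthesis, and *HMGCS1*, the cytosolic synthase of the sterol pathway, were not called in any comparison. Their log2 fold changes for RGZ were -0.04 ± 0.06 and -0.01 ± 0.09 (SE). *OXCT2*, a relative of *OXCT1*, had at most 16 counts in any library and was not tested.

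Neighbouring pathways were counted in the same fits. Of 10 transporters and receptors of ketone bodies and other monocarboxylates, 7 were tested. For RGZ none was called without the block and 1 with it, where 1.24% and 9.3% of all tested genes were called. These counts do not set the list apart from all genes. With the block *SLC16A6*, a carrier described to export ketone bodies from the liver, rose by 1.39 ± 0.36 on the log2 scale (SE, adjusted p = 0.0193 in edgeR). Its counts were 6, 7 and 9 in vehicle and 13, 35 and 16 under RGZ. That call was lost without vehicle 2 or without RGZ 2 (highest adjusted p 0.278 in edgeR), and DESeq2 with the block gave an adjusted p of 0.113. *SLC16A1*, the main carrier of this kind in many tissues, was not called.

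Mitochondrial beta-oxidation supplies the acetyl-CoA and acetoacetyl-CoA from which ketone bodies are made. A list of 8 thiolases and other enzymes of fatty acid oxidation held *ACAA2*, *HADHA*, *HADHB*, *HADH*, *ECHS1* and *ACADS* of mitochondria and *ACAA1* and *SCP2*, thiolases of peroxisomes. Of these, 1 rose for RGZ without the block and 3 with it, and none fell, where 0.947% and 4.95% of all tested genes rose. The median log2 fold change was 0.19 over the 8 genes, against -0.01 over all tested genes. *ACAA2*, the mitochondrial thiolase of beta-oxidation, stood at 36.4, 38.1 and 36.7 CPM in vehicle and at 57.5, 73.3 and 67.2 CPM under RGZ. It was 22.2, 23.7 and 22.1 CPM with T0070907 and 38.0, 38.2 and 44.7 CPM with both compounds. The conditions were in the reverse order of *BDH1* for both single compounds: *ACAA2* was highest under RGZ and lowest under T0070907. Its log2 fold change was 0.83 ± 0.10 for RGZ (SE, adjusted p = 0.00148 in edgeR) and -0.71 ± 0.10 for T0070907 (adjusted p = 0.0842, and 5.68e-04 with the block). For the combination against RGZ it was -0.71 ± 0.10 (adjusted p = 0.00525 in edgeR). For the combination against T0070907 it was 0.83 (adjusted p = 0.0110 in edgeR), close to the value for RGZ against vehicle. In that comparison 0.037% of all tested genes passed in the same fit, and *ACAA2* passed in the blocked fit as well. Its call there was kept in 8 of 12 unblocked fits that left out a library. The interaction was called for none of the 8 genes in either fit. *HADHA*, a subunit of the trifunctional protein, rose with RGZ with the block by 0.24 ± 0.05 (SE, adjusted p = 0.00763 in edgeR), and *ACADS*, the short-chain acyl-CoA dehydrogenase, by 0.57 ± 0.15 (adjusted p = 0.0206). With the block, the *HADHA* call was lost without vehicle 3 or RGZ 2 and the *ACADS* call without vehicle 2 or 3 or RGZ 2 or 3, with adjusted p-values up to 0.0868 and 0.171 in edgeR. The sister thiolase *ACAT1* and *ACAA2* thus had log2 fold changes for RGZ of 0.07 and 0.83.

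**Figure D4:**
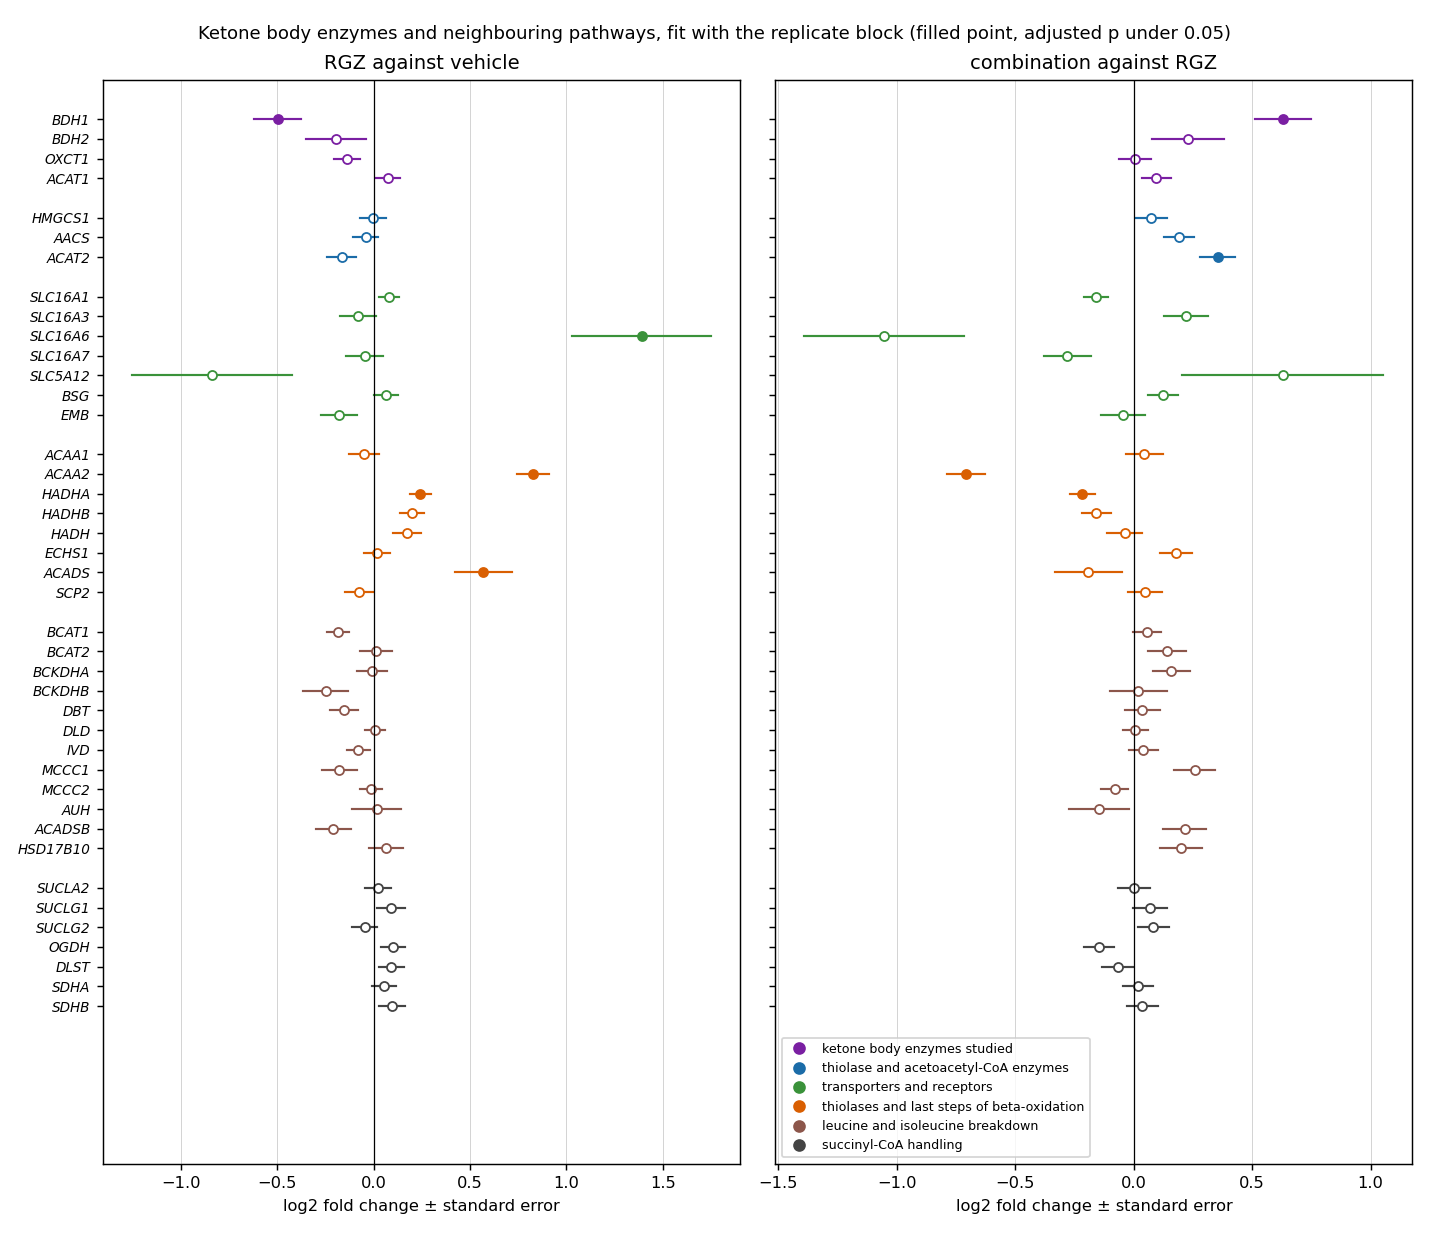
Log2 fold changes ± SE for RGZ against vehicle (left) and for the combination against RGZ (right) in the fit with the replicate block, for the 4 genes and tested genes of neighbouring pathways, coloured by pathway. Filled points have an adjusted p under 0.05; *ACAA2* lies at 0.83 for RGZ and *BDH1* at -0.50, while 3 of 4 genes of the top group are unfilled in both panels.

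Of 12 genes of leucine and isoleucine breakdown, the route that shares *ACAT1* and yields acetoacetate, none was called in any of these comparisons in either fit, and their log2 fold changes for RGZ lay between -0.26 and 0.07. The same held for 7 genes that handle succinyl-CoA, the partner of *OXCT1*, or succinate, with log2 fold changes between -0.05 and 0.10. Of all tested genes, 1.24% were called for RGZ without the block and 9.3% with it, and the share in the other comparisons was 0 to 11.4% over both fits, so that counts of 0 of 12 and 0 of 7 do not set either list apart from all genes. As a check of the treatment, 9 of 10 genes known as PPAR targets rose with RGZ in both fits, a list drawn up with results of these libraries known and so no independent evidence. *PLIN2*, which coats lipid droplets, went from 365, 389 and 405 CPM in vehicle to 2097, 2547 and 2477 CPM under RGZ. *FABP4*, a fatty acid carrier, had 1 count in each vehicle library and 1895, 3513 and 1648 counts under RGZ. *PDK4*, the kinase that shuts pyruvate dehydrogenase, and *ANGPTL4*, an inhibitor of lipoprotein lipase, rose as well, from 7.95 to 11.6 CPM up to 52.1 to 70.1 CPM and from 3.41 to 8.35 CPM up to 384 to 451 CPM.

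The genes most alike in pattern were sought by Pearson's r of log2 CPM over the 12 libraries, after the mean of each experiment had been removed, over 13217 genes whose mean reached 1 CPM. The r values describe these libraries and carry no test. For *BDH1* they were *MAN2B1* (r = 0.986), *PAQR8* (0.975) and *COL5A1* (0.971). With the block, *COL5A1* fell by 0.68 on the log2 scale under RGZ (adjusted p = 2.90e-04 in edgeR), and *MAN2B1* and *PAQR8* were at -0.16 and -0.52 (adjusted p = 0.162 and 0.0928). For *BDH2* the closest genes were *MTERF1*, *C2orf76* and *DEPTOR*, with r from 0.864 to 0.937. For *OXCT1* they were *HIF1AN*, *FAM120B* and *TMEM108*, with r from 0.893 to 0.919, and for *ACAT1* they were *PIR*, *COPZ1* and *GGCT*, with r from 0.954 to 0.972. No gene on this list besides *COL5A1* was called for RGZ with the block.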

How the data were processed

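RNA of A375 cells treated for 24 h was sequenced (TruSeq RNA, Illumina HiSeq) in 4 conditions and 3 experiments. The authors deposited raw counts per gene, with no normalization; the genome build was hg19 per the submitters' processing notes, and the aligner, counter and annotation are not given in the sources used here. Groups and experiment numbers came from the labels, and 0 columns belonged to other samples. Libraries of 1 condition differed by more than counting noise.

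Counts were scaled by TMM, filtered by filterByExpr and fitted with edgeR 4.0.16 in R 4.3.3 (quasi-likelihood test, 12 libraries, 4 groups, Benjamini-Hochberg adjustment over 13522 genes, called under 0.05). SE is the size of the log2 fold change over the square root of F, and is approximate. Limma 3.58.1 and DESeq2 1.42.0 served as alternatives, with other filters, scalings and left-out libraries. Exact permutation tests were two-sided. Scripts were tested on simulated data. Libraries of the same experiment, as numbered in the labels, mostly deviated together (mean r = 0.554, lowest 0.0793, 18 pairs), and so pair the conditions. Pairs from different experiments had a mean r of -0.270 (highest 0.0921, 36 pairs). Combination 1 was paired weakly, with r of 0.0793 to vehicle 1, 0.162 to T0070907 1 and 0.194 to RGZ 1. P-values without the block measure the spread between experiments with 1 cell line. Those with the block measure the spread left after the mean difference between experiments is taken out. Intervals of summed counts cover counting error only.

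The genes, lists and named genes were chosen with earlier results of these data known. Named were the 4 genes, other enzymes of ketone body metabolism (some are not reported here), up to 4 called genes in each further list by the smallest p for RGZ with the block, and the 3 genes most alike to each of the 4. Transcript lengths came from GENCODE, and promoter windows from RefSeq, which held all 4 genes.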

Additional observations from a re-analysis of the deposited data

Results flagged for a closer look

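The effect of RGZ on *PLIN2*, which coats lipid droplets, was smaller in the presence of T0070907 by a test of the difference itself. The interaction was -1.10 ± 0.177 on the log2 scale (SE, adjusted p = 0.0301 in edgeR with the replicate block), and -1.07 without the block (adjusted p = 1.00); with the block it was called in 6 of 12 fits that left out a library, with adjusted p-values up to 0.130. None of the 4 ketone body genes was flagged.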

How the results depend on the processing

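For the 4 genes, 24 results were recomputed under 788 alternative values, of which 729 kept both the direction and the side of the threshold, 34 passed the threshold newly and 25 changed sign. None of those that changed sign was called, and the largest was 0.12 on the log2 scale. The replicate block made *BDH1* called for RGZ against vehicle (-0.50, adjusted p = 0.0126 in edgeR) and for the combination against RGZ (0.63, 0.00163). The same held with the block in DESeq2 (-0.50 and 0.63), limma-voom (-0.50 and 0.62) and edgeR with DESeq2's size factors (-0.50 and 0.63). DESeq2 without the block called *BDH1* for the combination against RGZ (0.64, adjusted p = 0.0212). The block changed no other call of the 4 genes. Without the filter on low counts, *OXCT1* for the combination against RGZ was -0.0014.

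With each library left out in turn, in both fits, *BDH1* ranged from -0.58 to -0.40 for RGZ against vehicle, from 0.24 to 0.46 for T0070907, from -0.050 to 0.29 for the combination against vehicle, from 0.45 to 0.79 for the combination against RGZ and from -0.40 to -0.062 for the combination against T0070907. *BDH2* ranged from -0.22 to 0.12 for T0070907, from -0.085 to 0.22 for the combination against vehicle and from -0.079 to 0.26 for the combination against T0070907. *ACAT1* ranged from -0.036 to 0.070 for T0070907, and *OXCT1* from -0.058 to 0.055 for the combination against RGZ and from -0.0095 to 0.10 for the interaction. Without the block, *BDH2* ranged from -0.32 to -0.081 for RGZ, from 0.12 (without combination 3) to 0.41 (without combination 1) for the combination against RGZ and from 0.12 to 0.46 for the interaction, and *ACAT1* from 0.024 (without RGZ 2) to 0.12 (without vehicle 2) for RGZ, with none called. In that fit, *BDH1* for the combination against RGZ was called in 1 of 12 such fits, without combination 3 (adjusted p = 0.0314 in edgeR).

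Over all genes, RGZ against vehicle had 167 calls, 302 with DESeq2, 69 with only the groups compared, and with the block 1258, 896 with DESeq2 and 1220 with limma-voom. The combination against RGZ had 167, 318, 41 and, with the block, 1545. The combination against T0070907 had 5 calls, 83 with DESeq2, 0 with only the groups compared and 1185 with the block. T0070907 against vehicle had 1, 21 and 123 calls for edgeR, DESeq2 and the block, the combination against vehicle had 0 in edgeR and 227 with the block in DESeq2, and the interaction had 0 calls, 38 with the block and 52 with the block in DESeq2. The cause of these differences was not tested. *BDH2* had 40 to 93 counts per library.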
